A study of Mus musculus with 16 samples.

Results

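Neutrophils of germ-free (GF) mice, which are raised without microorganisms, were compared between 2 organs, lung and spleen, across all genes. The 6 libraries compared, of 16 in the series, were 3 from lung (replicates 2, 3 and 4) and 3 from spleen (replicates 1, 3 and 4), chosen by their labelled tissue and microbial status. All mice were C57BL/6, the cells were sorted as Ly6G-positive neutrophils by CD45, CD11b, Ly6G and DAPI, and the protocols give typical purities above 95%. The other libraries came from GF blood (2 libraries) and from lung, spleen and blood of specific pathogen free (SPF) mice, which carry a microbiota; GF blood and SPF lung and spleen are used below for comparison. The labels give no agent, age, sex or way of taking the organs apart. Nor do they state that replicates are different mice, so each p-value below rests on a spread that could be technical in part.

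Neutrophils are short-lived phagocytes made in the bone marrow. They store antimicrobial proteins in granules that are filled in a set order during maturation, so transcripts of secondary granule proteins belong to marrow precursors and largely disappear from mature cells. Mature neutrophils linger in the capillaries of the lung and in the red pulp of the spleen, and when they are stimulated they transcribe immediate early genes, chemokines and interleukin 1 through NF-kB and AP-1, together with inhibitors that end the response.

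The promoters of 6 genes are shown, because chemokine and inhibitor genes on the one side and granule protein genes on the other differed between the organs in opposite directions. Each sequence is RefSeq's, on GRCm38.p6, 5′ to 3′ on the gene's strand, from 250 bases before the annotated start to 50 bases after it. Capitals mark matches to 4 motifs searched on both strands: the kB consensus (by its name), the cyclic AMP response element TGACGTCA, the AP-1 element TGANTCA and the C/EBP element TTGCNNAA. The 3 genes with a kB match and Ppp1r15a were higher in lung.

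Cxcl2 promoter, chr5:90903649-90903948, plus strand: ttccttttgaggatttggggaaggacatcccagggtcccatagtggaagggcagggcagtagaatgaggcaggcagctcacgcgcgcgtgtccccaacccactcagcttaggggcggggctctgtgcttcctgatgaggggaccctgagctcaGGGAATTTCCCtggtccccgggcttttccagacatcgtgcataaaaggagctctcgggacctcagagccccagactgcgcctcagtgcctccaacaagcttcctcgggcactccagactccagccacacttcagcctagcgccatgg

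Nfkbia promoter, chr12:55492598-55492897, minus strand: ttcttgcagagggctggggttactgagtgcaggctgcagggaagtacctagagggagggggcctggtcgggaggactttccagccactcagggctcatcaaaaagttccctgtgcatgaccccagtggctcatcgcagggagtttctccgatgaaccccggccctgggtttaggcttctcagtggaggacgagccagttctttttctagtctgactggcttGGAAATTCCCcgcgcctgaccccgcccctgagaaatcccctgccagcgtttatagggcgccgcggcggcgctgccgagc

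Tnfaip3 promoter, chr10:19015361-19015660, minus strand: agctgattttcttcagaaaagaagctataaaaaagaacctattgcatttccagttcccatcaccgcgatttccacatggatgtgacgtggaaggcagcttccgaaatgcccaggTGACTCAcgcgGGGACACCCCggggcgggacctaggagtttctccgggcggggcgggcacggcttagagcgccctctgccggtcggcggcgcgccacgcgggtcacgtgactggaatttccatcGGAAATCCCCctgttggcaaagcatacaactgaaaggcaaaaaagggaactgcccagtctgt

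Ppp1r15a promoter, chr7:45526219-45526518, minus strand: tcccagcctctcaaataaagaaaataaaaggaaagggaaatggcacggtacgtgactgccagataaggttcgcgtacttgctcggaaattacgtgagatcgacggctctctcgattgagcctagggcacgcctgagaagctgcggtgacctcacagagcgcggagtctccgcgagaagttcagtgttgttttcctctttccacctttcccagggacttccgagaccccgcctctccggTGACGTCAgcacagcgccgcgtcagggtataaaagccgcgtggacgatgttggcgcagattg

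The promoters of Ltf and Ngp, which encode secondary granule proteins and were lower in lung, hold matches to the C/EBP element.

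Ltf promoter, chr9:111019042-111019341, plus strand: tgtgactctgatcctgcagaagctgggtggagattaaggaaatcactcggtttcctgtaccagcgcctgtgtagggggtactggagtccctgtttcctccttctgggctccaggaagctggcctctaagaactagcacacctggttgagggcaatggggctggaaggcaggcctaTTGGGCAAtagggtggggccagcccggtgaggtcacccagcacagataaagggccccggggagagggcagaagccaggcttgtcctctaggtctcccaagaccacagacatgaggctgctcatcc

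Ngp promoter, chr9:110419558-110419857, plus strand: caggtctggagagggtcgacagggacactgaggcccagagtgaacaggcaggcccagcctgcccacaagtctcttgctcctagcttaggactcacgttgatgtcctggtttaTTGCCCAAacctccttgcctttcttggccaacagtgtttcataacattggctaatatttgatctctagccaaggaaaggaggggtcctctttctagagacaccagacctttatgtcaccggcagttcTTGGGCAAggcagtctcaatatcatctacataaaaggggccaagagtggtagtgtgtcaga

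The Cxcl2 window holds 2 overlapping kB matches, which start 97 and 96 bases before the gene's start. The Nfkbia window holds 1, at 29 bases before the start, and the Tnfaip3 window holds 2, at 125 and 12 bases, with 1 AP-1 match at 136 bases. Ppp1r15a has 1 cyclic AMP response element 12 bases before its start. Ltf has 1 C/EBP match at 75 bases, and Ngp has 2, at 138 and 11 bases. A kB match was present in 4.51% of all 32851 promoters of this length, the cyclic AMP element in 1.79%, the AP-1 element in 7.81% and the C/EBP element in 10.8%. Among genes with a promoter in the table, a kB match was found for 56 of 483 genes higher in lung (11.59%) and 8 of 137 genes lower in lung (5.84%), against 407 of 6349 tested genes (6.41%). An AP-1 match was found for 58 of the genes higher in lung (12.01%), 12 of the genes lower in lung (8.76%) and 404 of the tested genes (6.36%). The cyclic AMP element was found for 26 (5.38%), 1 (0.73%) and 244 (3.84%) of the same sets, and the C/EBP element for 43 (8.9%), 20 (14.6%) and 631 (9.94%). These shares are descriptions, and a match is not evidence of binding.

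Levels below are normalised counts (the deposited value with the offset of 0.5 reads subtracted), per library or as mean ± SD with n = 3 for each organ. Differences are lung minus spleen on the log2(value + 1) scale, with the limma standard error (SE) and Benjamini-Hochberg adjusted p, and a gene counts as higher or lower where the adjusted p is under 0.05. Lung libraries held 651389 to 1147991 recovered reads and spleen libraries 147645 to 376985. A single read is therefore worth 0.885 to 1.45 normalised counts in lung and 2.47 to 6.01 in spleen, and 3.1% to 5.8% of listed genes had 0 reads in a lung library against 18.9% to 31.3% in a spleen library. Across genes, libraries of lung and spleen correlated at a Spearman rho of 0.762 to 0.816, against 0.91 to 0.925 between lung libraries and 0.809 to 0.853 between spleen libraries. Genes that mark neutrophils were abundant as a sum in all 6 libraries: the 18 in the list (median difference -0.24) summed to 55397.3, 57928.2 and 47470.5 in lung, against 86016.1, 57054.3 and 52661 in spleen. Of the 18, 2 were higher and 3 lower in lung. With 1 of the 6 libraries left out, 1 or 2 were higher and 1 to 3 lower. Not every marker was abundant, since Ly6g stood at 41.05, 44.25 and 20.3 in lung. The Y-linked Ddx3y had reads in 1 library of each organ, lung replicate 2 and spleen replicate 1. Xist had reads in the other libraries of both organs. This is the pattern of mice of both sexes within each organ, in which case not all libraries of an organ come from the same mouse. Sex was not in the model.

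Of 8299 genes tested, 844 (10.2%) differed between lung and spleen. They were 666 higher in lung (8.03%) and 178 lower in lung (2.14%), and the median difference of all tested genes was 0.11. The counts of called members in gene lists below are to be read against these shares, some being near them. After quantile normalization, which moves that median to -0.12, the split was 561 higher and 386 lower, so 59.2% of the called genes were higher, against 78.9% without it. Genes with a mean under 20 normalised counts over the 6 libraries were called in 8.61% of cases, those at 20 to 100 in 9.35% and those at 100 or more in 16.1%. The groups did not overlap in 2402 genes (28.9%), among them 661 of the 666 higher and 167 of the 178 lower genes.

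**Figure D1:**
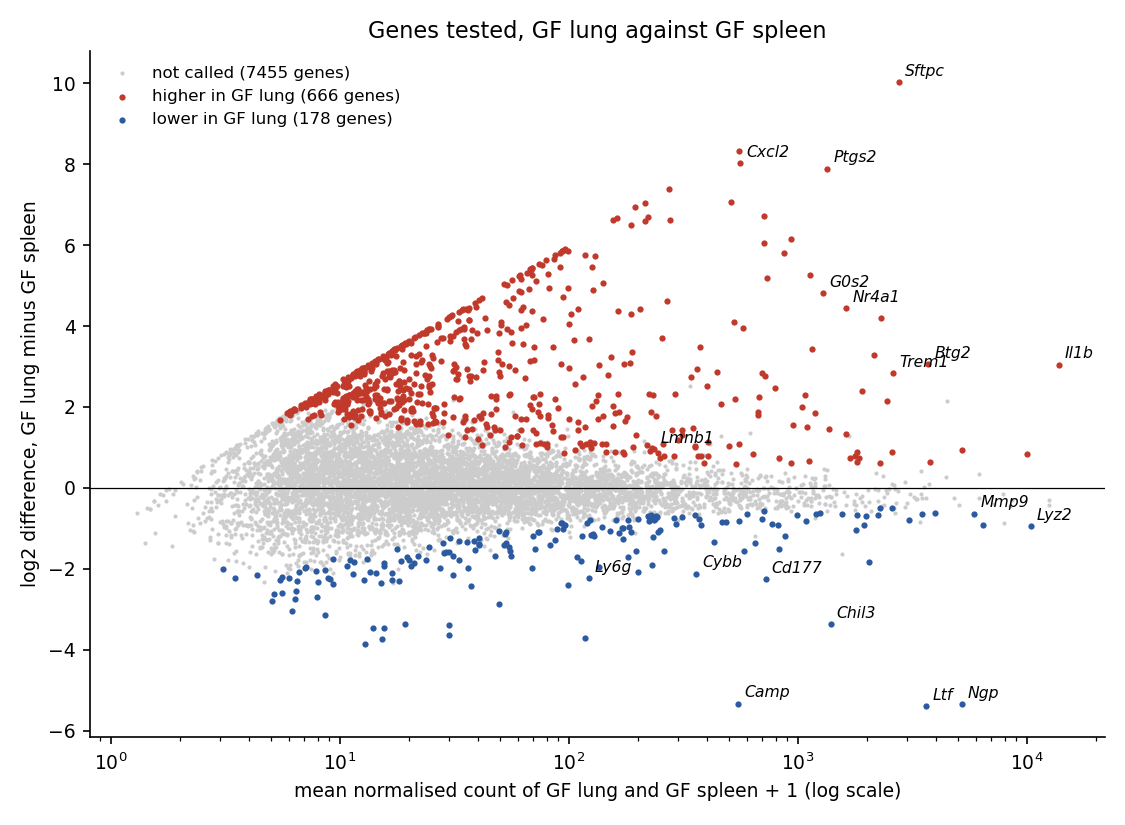
Difference between GF lung and GF spleen (log2, lung minus spleen, vertical axis) against mean level over the 6 libraries (horizontal, log scale) for the 8299 tested genes; the 666 higher and 178 lower genes are coloured. The higher genes reach differences of about 10 at the top, while 3 of the lower genes pass a difference of 4 in size.

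The 666 higher genes had a median difference of 2.4, with 470 of them at 2 or more and 98 at 4 or more. The 178 lower genes had a median of -1.5, with 50 at 2 or more in size and 3 at 4 or more. The higher genes differed in their spleen level: 194 had 0 reads in all 3 spleen libraries, 378 had at most 3 reads in the 3 together, and 173 had at least 10 normalised counts in each spleen library. Of the 178 lower genes, 6 had 0 reads in all lung libraries and 111 had at least 10 normalised counts in each. Among higher genes with a lung mean of at least 100, the 54 with at most 3 spleen reads had a median coefficient of variation of 22.6% over the lung libraries, against 13% for the 148 with at least 10 in every spleen library. Of the 54, 49 averaged under 10 in GF blood, and of the 148, 8 did.

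Inflammatory mediators were among the genes that rose most in lung. Il1b (ENSMUSG00000027398, chromosome 2, 129364570 to 129371139 on GRCm38), which encodes the fever-inducing cytokine interleukin 1 beta, measured 21400.2, 29640.0 and 22776 in lung libraries, against 2511, 3310.5 and 3082 in spleen libraries. Every lung library was far above every spleen library, by a mean ratio of 8.29 (log2 difference 3.04, SE 0.25, adjusted p = 2.41e-07). Cxcl2, a chemokine that draws neutrophils through the receptor Cxcr2, measured 926, 1149 and 1277 in lung, against 5.07, 0 and 0 in spleen. Reads were thus nearly absent from spleen while no lung library was low (log2 difference 8.03, SE 0.45, adjusted p = 5.97e-14). Ptgs2, the inducible cyclooxygenase that starts prostaglandin synthesis, measured 2435, 3052 and 2546 in lung, against 15.2, 0 and 30 in spleen, again without overlap (7.89, SE 0.86, adjusted p = 9.42e-05).

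Of the 5 neutrophil-attracting chemokine genes tested, 3 rose and none fell, with a median difference of 4.39. Cxcl3, a close relative of Cxcl2, measured 50.9, 49.6 and 129 in lung and 0 in each spleen library, at least 19.6-fold higher against a floor of 3 reads over the spleen libraries together. Cxcl15, the lung chemokine lungkine known from airway epithelium, was likewise at 0 reads in spleen and at 35, 79.6 and 97.1 in lung. Of 7 other chemokines 4 rose and none fell, with a median of 2.29. Ccl3 and Ccl4, which attract monocytes and lymphocytes, averaged 48.3 ± 45.3 and 122 ± 115 in lung, against 0.823 ± 1.43 and 1.69 ± 2.93 in spleen. Both were highest in lung replicate 4, where Ccl4 stood at 255, and their SD in lung was close to the mean. Cxcl12, a stromal chemokine that retains neutrophils in marrow, was at 0 reads in each spleen library and at 44.5 ± 10.9 in lung.

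Of 17 cytokine genes 6 rose and 4 fell, with a median of 0.01; 2 were lower without lung replicate 2 or spleen replicate 3. Osm, which encodes oncostatin M, a cytokine of the interleukin 6 family, measured 1288, 1527 and 1457 in lung, against 55.8, 22.2 and 36 in spleen (5.20, SE 0.43, adjusted p = 3.42e-07). Its lung libraries lay within a narrow band and far from the spleen libraries. Tnf and Il1a, also early inflammatory cytokines, averaged 103 ± 37.7 and 124 ± 68.5 in lung, against 11 ± 6.54 and 4.47 ± 3.94 in spleen. Il23a, a subunit of interleukin 23, had 0 reads in each spleen library and at least 15.2-fold more in lung. Among the 4 lower genes were Tnfsf14, a ligand of the lymphotoxin beta receptor, and Il16, a chemoattractant for CD4-positive cells. Tnfsf14 averaged 99.4 ± 2.51 in lung and 293 ± 7.21 in spleen, so that both organs were tight and apart (-1.55, SE 0.21, adjusted p = 3.11e-06). Il16 averaged 541 ± 72.3 in lung and 1222 ± 164 in spleen (-1.18, adjusted p = 5.02e-05). The interleukin 1 receptor antagonist gene Il1rn, at 1515 ± 366 in lung and 1082 ± 101 in spleen, did not pass the test (adjusted p = 0.128).

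**Figure D2:**
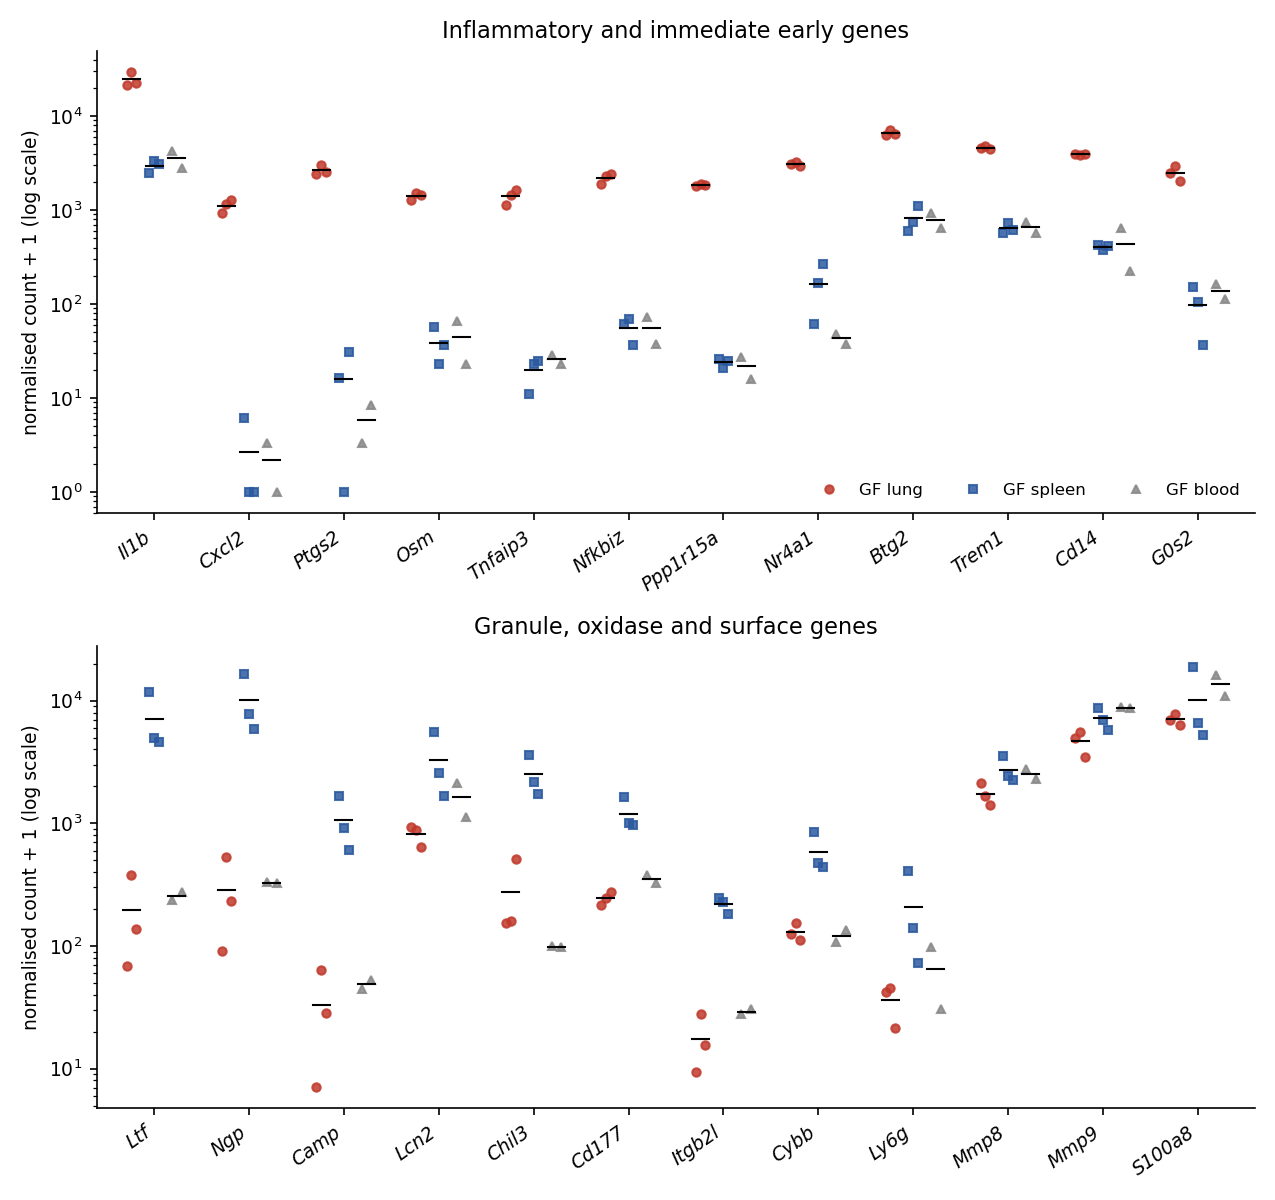
Normalised count plus 1 per library (log axis) of 12 inflammatory and immediate early genes (top) and 12 granule, oxidase and surface genes (bottom), for GF lung, GF spleen and GF blood; points are libraries and short lines are means. The lung points of Cxcl2, Tnfaip3 and Ptgs2 stand above 900, with the spleen points at or under 30, while for Ltf the lung points stand at or under 377 and the spleen points at or above 4631.

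Of 19 inhibitors and subunits of NF-kB, 7 were higher and none lower, with a median of 0.57. Over all tested genes 8.03% were higher and 2.14% lower, so the absence of lower members is near the overall share. Tnfaip3, the ubiquitin-editing enzyme A20 that switches the pathway off, measured 1130.1, 1447 and 1637 in lung, against 10.1, 22.2 and 24 in spleen (6.04, SE 0.33, adjusted p = 3.89e-14). Nfkbiz, a nuclear coregulator, averaged 2195 ± 284 in lung and 55.3 ± 17.2 in spleen (5.26, SE 0.26, adjusted p = 3.45e-15). Both genes had a small SE for so large a difference, and neither organ's libraries came near the other's. Nfkbia, the inhibitor IκBα, was expressed in both organs, at 2638, 3477 and 3426 in lung, against 959, 472 and 462 in spleen (2.40, SE 0.45, adjusted p = 0.00428). Nfkbid and Nfkbie, further members of the inhibitor family, rose by 3.94 and 1.71, and Traf1, an adaptor of tumour necrosis factor receptors, by 3.71. None of the 5 DNA-binding subunits passed: Rela, the p65 subunit, averaged 173 ± 12.1 in lung and 189.5 ± 7.97 in spleen. Without any 1 of the 6 libraries, 6 or 7 members of the list were called higher.

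Immediate early transcription factors rose in 16 of 26 cases and fell in 1, with a median of 1.87. Egr1, a zinc finger factor, averaged 1018 ± 318 in lung and 5.03 ± 5.07 in spleen (7.07, SE 0.55, adjusted p = 1.11e-09). Nr4a1, an orphan nuclear receptor, measured 3064, 3245 and 2966 in lung, against 60.9, 165 and 264 in spleen, tight in lung and spread in spleen (4.44, SE 0.33, adjusted p = 4.48e-09). The AP-1 subunits Fos, Fosb, Jun and Junb all passed. Junb averaged 4010.4 ± 244 in lung and 908 ± 134 in spleen (2.15, adjusted p = 5.1e-09), and Fos 4364 ± 593 in lung and 236 ± 60.9 in spleen (4.21, SE 0.56, adjusted p = 0.00045). Fosb had 0 reads in every spleen library and was at least 11.8-fold higher in lung. The single lower member was Klf6, a zinc finger factor, at 771 ± 119 in lung and 1221 ± 44 in spleen (-0.68, adjusted p = 0.025). It lost its call in limma without lung replicate 4, spleen replicate 3, spleen replicate 4 or lung replicate 2 (-0.54, adjusted p = 0.162 without the last). Immediate early genes are also induced by the handling of tissue, and the protocols do not describe how the organs were taken apart, so the part of handling in these differences cannot be told apart from that of the organ.

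Feedback regulators followed, with 7 of 12 phosphatases and signalling inhibitors higher, 1 lower and a median of 2.17. Ppp1r15a, which encodes GADD34, the subunit that reverses the block of translation by eIF2 alpha phosphorylation, measured 1809, 1872 and 1841 in lung, against 25.4, 19.8 and 24 in spleen (6.14, SE 0.45, adjusted p = 5.3e-08). The 3 values of each organ were almost equal to each other. The number of higher members was 3 without lung replicate 4 and 4 without lung replicate 3, spleen replicate 3 or spleen replicate 4, and the number of lower members was 0 without lung replicate 2 or 3 or spleen replicate 3 or 4. Of the phosphatases of MAP kinases Dusp3 rose by 3.08, while Dusp1 averaged 7327 ± 2451 in lung and 1678 ± 594 in spleen without passing (adjusted p = 0.13). Among mRNA decay and antiproliferative genes 4 of 17 rose and none fell, with a median of 0.68: Btg2 averaged 6627 ± 382 in lung and 814 ± 263 in spleen (3.07, adjusted p = 2.72e-09), Gadd45b 645 ± 119.8 in lung and 80.3 ± 5.21 in spleen, and Zfp36, the decay factor tristetraprolin, 2000.2 ± 281 in lung and 729.7 ± 83.2 in spleen.

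Receptors that sense microbial products rose in 4 of 29 cases and fell in 1, with a median of -0.09, against 0.11 for all genes. The number of lower members was 0 without lung replicate 4 and 2 without spleen replicate 1. Trem1, which amplifies inflammatory signals, measured 4556, 4757 and 4419 in lung, against 563, 733 and 619 in spleen (2.84, SE 0.19, adjusted p = 3.8e-12). The lung libraries differed little from each other. Cd14, the co-receptor for lipopolysaccharide, averaged 3916 ± 94.2 in lung and 403 ± 26.1 in spleen (3.27, SE 0.49, adjusted p = 0.000914). Tlr2, a receptor for bacterial lipoproteins, and Clec4e, a C-type lectin, were the other 2 that rose, by 2.19 and 1.5. Among 26 cytokine and growth factor receptors 3 rose and 1 fell, with a median of 0.05; without lung replicate 2, 1 was higher. The decoy receptor Il1r2, which binds interleukin 1 without signalling, averaged 3341 ± 565 in lung and 1805 ± 402 in spleen (0.90, adjusted p = 0.0143), a call that ended without spleen replicate 3 or 4 or lung replicate 2 (0.76, adjusted p = 0.0825 without lung replicate 2). Csf3r, the receptor for granulocyte colony-stimulating factor, averaged 7484 ± 841 in lung and 8264 ± 1257 in spleen without passing (adjusted p = 0.677).

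Trafficking receptors were mixed, with 7 of 30 higher, 2 lower and a median of -0.06. The number of lower members was 0 without lung replicate 2 and 1 without lung replicate 3 or 4 or spleen replicate 1 or 3. Ccrl2, a chemerin-binding receptor that does not signal through G proteins, averaged 1719.7 ± 87.3 in lung and 29.1 ± 11.6 in spleen (5.80, SE 0.57, adjusted p = 1.46e-05). Cxcr2 was lower, at 2520.5, 3024 and 2578 in lung, against 5254, 3982 and 3496 in spleen (-0.63, SE 0.17, adjusted p = 0.0126). Its groups did not overlap, but the gap from the highest lung to the lowest spleen library was narrow, and the call ended without spleen replicate 1 (-0.47, adjusted p = 0.105), lung replicate 2 or lung replicate 4. Cxcr4, which retains neutrophils in marrow and rises as they age, measured 138, 167 and 145 in lung, against 55.8, 111 and 114 in spleen (0.71, adjusted p = 0.133). Icam1, an adhesion ligand, averaged 223 ± 27.5 in lung and 42.7 ± 6.46 in spleen (2.29, adjusted p = 1.32e-06).

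Of 9 factors that act on vessels, 5 rose and 1 fell, with a median of 2.35. Without lung replicate 4, 3 were higher, and none was lower without that library, spleen replicate 1 or spleen replicate 3. Thbs1, which encodes thrombospondin 1, an inhibitor of vessel growth, averaged 2114 ± 145 in lung and 196 ± 52.5 in spleen (3.44, SE 0.47, adjusted p = 0.000211). Vegfa, the vessel growth factor, measured 71.2, 72.6 and 49.3 in lung, against 5.07, 4.94 and 6.01 in spleen, which is 1 or 2 reads per spleen library. In the eicosanoid pathway 3 of 17 rose and 2 fell, with a median of -0.25. Beside Ptgs2, Hpgd, which breaks prostaglandins down, averaged 372 ± 96.3 in lung and 0.823 ± 1.43 in spleen (6.49, adjusted p = 5.99e-11). Its coefficient of variation over the lung libraries was 25.9%, against 12.3% for Ptgs2. Hpgd had 0 reads in each GF blood library, where Ptgs2 stood at 2.338 and 7.408. Which cells of the lung samples carried Hpgd was not tested. Lta4h, the enzyme that makes leukotriene B4, averaged 47.3 ± 7.25 in lung and 169 ± 88.2 in spleen (-1.71, adjusted p = 0.000362), and Ptger2, a prostaglandin E2 receptor, 22.4 ± 10.4 in lung and 70.5 ± 14.2 in spleen. Of 16 genes of cyclic AMP signalling Pde4b (2.48) and Sik1 (3.66) rose and Rgs2 (-1.5) fell, with a median of 0.0.

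Secondary granule transcripts were lower in lung: 13 of 14 tested members fell and none rose, with a median of -1.98. Ltf, which encodes lactoferrin, measured 67.6, 377 and 138 in lung, against 11698, 4982 and 4631 in spleen (-5.39, SE 0.93, adjusted p = 0.00321). Ngp, a granule protein of mouse neutrophils, measured 90.5, 528 and 230.5 in lung, against 16566, 7799.5 and 5927 in spleen (-5.35, SE 0.82, adjusted p = 0.00152). In both genes the groups were far apart, and replicate 1 was the highest spleen library. Camp, the cathelicidin gene, averaged 32.1 ± 28.7 in lung and 1063 ± 548 in spleen. Chil3, the chitinase-like protein Ym1, averaged 273 ± 204 in lung and 2507 ± 996 in spleen (-3.36, adjusted p = 4.47e-05), Cd177, a surface glycoprotein of neutrophils, 245 ± 29.3 in lung and 1199.7 ± 376 in spleen (-2.25, adjusted p = 9.57e-09), and Itgb2l, an integrin subunit, 16.6 ± 9.36 in lung and 217 ± 32.8 in spleen (-3.71, adjusted p = 1.41e-08). Lcn2, which encodes the iron-binding lipocalin 2, and Lyz2, a lysozyme, differed by -1.83 and -0.95. The number of lower members was 10 to 11 without any 1 of the 6 libraries, and 8 without the 5 libraries of the series under 250000 reads, which leaves 1 GF spleen library: Ltf then differed by -5.02 (adjusted p = 0.161). In bulk samples, fewer cells that carry a transcript and less of it per cell cannot be told apart. The summed level of the list was 16092.5, 16831.3 and 12893.2 in lung, against 70619, 41341.5 and 33005 in spleen.

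Spleen replicate 1, the highest in these genes, also stood apart in S100a8, which encodes a calcium-binding protein: it measured 7022, 7818 and 6346 in lung, against 18815, 6537 and 5298 in spleen, where the values overlap and the gene did not pass (-0.30, adjusted p = 0.83). That library held the most haemoglobin RNA of the 6, with Hbb-bs at 8476 against 31.7 and 18 in the other spleen libraries and 767, 6.78 and 32.8 in lung. Without that library 10 of the 14 secondary granule genes were lower in lung, Ltf differed by -4.96 (adjusted p = 0.0154) and S100a8 by 0.26 (adjusted p = 0.846).

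Gelatinase granule and cytosolic proteins, made later in maturation, gave 3 lower and none higher of 18, with a median of -0.41. Pglyrp1, a peptidoglycan-binding protein, averaged 528 ± 48.5 in lung and 1013 ± 313 in spleen (-0.90, adjusted p = 0.00259). Mmp9, which encodes gelatinase B, averaged 4648 ± 1043 in lung and 7170.4 ± 1486 in spleen (-0.63, adjusted p = 0.0203), and lost its call without lung replicate 4 (-0.44, adjusted p = 0.202), spleen replicate 1 or spleen replicate 3. The NADPH oxidase, which makes superoxide, had 3 of 8 members lower, none higher and a median of -0.34. Cybb, its catalytic subunit gp91phox, measured 123, 154 and 112 in lung, against 847, 471 and 443 in spleen, a gap that no library crossed (-2.12, SE 0.28, adjusted p = 1.25e-06). Hvcn1, a proton channel that supports the oxidase, averaged 10.4 ± 3.57 in lung and 50.3 ± 20.4 in spleen, and Rac2, a GTPase that activates it, measured 2212, 2658 and 1878 in lung, against 4278, 3809 and 3508 in spleen. The other 5 tested members did not pass. Ly6g, the gene of the marker used for the sort, measured 41, 44.2 and 20.3 in lung, against 411, 138 and 72.1 in spleen (-2.23, SE 0.49, adjusted p = 0.00479). Its highest lung library was below its lowest spleen library.

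Outside these groups, Serpinb1a, an inhibitor of neutrophil serine proteases, averaged 29.1 ± 4.45 in lung and 166 ± 71.2 in spleen (-2.40, adjusted p = 1.36e-05). Adpgk, an ADP-dependent glucokinase, averaged 10.7 ± 3.11 in lung and 86.3 ± 22.4 in spleen (-2.87, adjusted p = 3.83e-05). Fcna, a ficolin, and Abca13, a lipid transporter, had 0 reads in all lung libraries and averaged 23.8 ± 17.3 and 10.4 ± 4.62 in spleen. These levels rest on 19 and 8 reads over the spleen libraries together. In SPF mice Fcna was called lower (-3.31, limma adjusted p = 0.000765) and Abca13 was not called (-0.90, limma adjusted p = 0.501). The GF call of Abca13 ended with replicate number as a block. Among abundant genes Ubb, which encodes polyubiquitin, averaged 4494 ± 291 in lung and 8399 ± 282 in spleen (-0.90, adjusted p = 7.2e-05), and Mxd1, an antagonist of Myc, 6834 ± 220.1 in lung and 3590.1 ± 408 in spleen (0.93, adjusted p = 0.000324). G0s2, which inhibits a lipase, averaged 2485 ± 459 in lung and 97.3 ± 58.3 in spleen (4.82, adjusted p = 5.63e-07).

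The 13 genes encoded by the mitochondrial genome rose in 12 cases and fell in none, with a median of 2.58, while of 46 nuclear genes of the respiratory chain none was called and the median was 0.33. The gene mt-Co1, a cytochrome oxidase subunit, measured 1349.8, 1696 and 2568 in lung, against 644, 449 and 414 in spleen (1.86, SE 0.28, adjusted p = 3.57e-05). The gene mt-Cytb, of complex III, averaged 1261 ± 533 in lung and 173 ± 19.9 in spleen (2.77, SE 0.30, adjusted p = 1.18e-07). The lung libraries were not alike here: the summed level of the 13 was 5905, 6989.1 and 12728.4 in lung, highest in replicate 4, against 2084.6, 1621.9 and 1297.6 in spleen. Mitochondrial genes have nuclear copies, and reads may be shared with them.

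Other pathway lists were called to different degrees. Of 20 survival and apoptosis genes 5 rose and none fell (median 0.41), among them the survival kinase gene Pim3 (3.75). That count was 1 without spleen replicate 3, 2 without lung replicate 3 or 4, and 3 without lung replicate 2 or spleen replicate 4. Of the stress genes 4 of 18 rose and 1 fell (median 0.23). Among those that rose was Nfe2l2, a regulator of antioxidant genes, at 748 ± 27.3 in lung and 356 ± 63.4 in spleen. The 1 that fell was Hmox1, at 118 ± 26.8 in lung and 201 ± 18.2 in spleen (-0.79, limma adjusted p = 0.0371). Hmox1 was called lower in SPF lung too (-0.96, limma adjusted p = 0.0101). The number of lower stress genes was 0 without any 1 of the 6 libraries other than lung replicate 2. Cell cycle genes were mixed, with 3 higher and 1 lower of 16: Stmn1 and Tuba1b, a regulator and a subunit of microtubules, rose by 3.62 and 2.04. The number of lower cell cycle genes was 0 without lung replicate 2 or 3 or spleen replicate 4, and 2 without spleen replicate 3. Glycolysis had 2 higher and 2 lower of 20 (median -0.32), with the lactate exporter Slc16a3 at 1424 ± 274 in lung and 482 ± 53.5 in spleen (1.54, adjusted p = 6.55e-06). Its number of higher members was 1 without lung replicate 2 or 4 or spleen replicate 1 or 4, and none was lower without lung replicate 3, lung replicate 4 or spleen replicate 1. Interferon-stimulated genes had 1 higher and 1 lower of 35 (median -0.09), with Isg15, a ubiquitin-like modifier, at 166 ± 22.9 in lung and 77.3 ± 21.5 in spleen, a call that ended without spleen replicate 4 (0.87, adjusted p = 0.116), lung replicate 2 or lung replicate 3. The number of lower members was 0 without lung replicate 4 or spleen replicate 1 and 2 without lung replicate 3. MHC class I genes gave no call in 14 (median -0.22). Cytosolic ribosomal proteins gave 1 in 54, higher in lung (median 0.44), and this count was 0 without lung replicate 3 or 4, and 5, 4 and 2 without spleen replicates 1, 3 and 4.

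**Figure D3:**
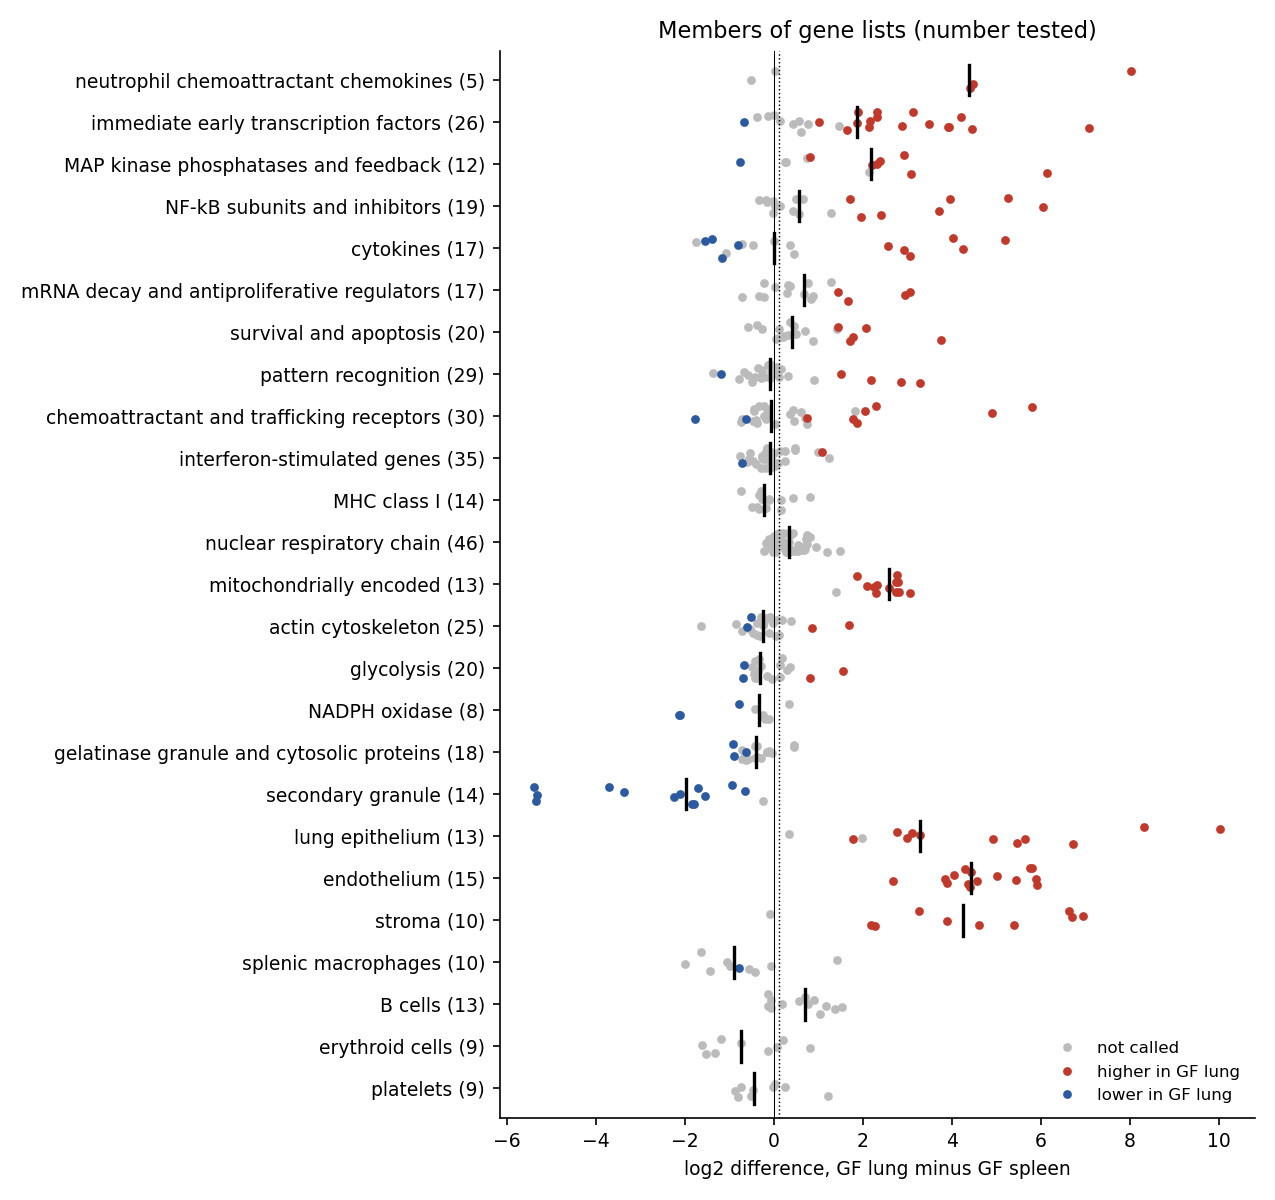
Difference between GF lung and GF spleen (log2, lung minus spleen) of each tested member of 25 gene lists, 1 point per gene, coloured by whether it was called higher, lower or not; the thick bar is the list's median and the dotted line the median of all tested genes. The 13 lower secondary granule genes lie at the left, and all 15 endothelial genes at the right.

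The lung libraries also held transcripts that belong to other cells of the lung, and most of these were higher in lung than in spleen. Of the 23 lung epithelial markers 13 were listed and tested, and 11 rose and none fell (median 3.28). Sftpc, the surfactant protein of type II alveolar cells, measured 3039.6, 7069 and 6490.1 in lung, against 10.1, 0 and 0 in spleen (10.03, SE 0.68, adjusted p = 3.95e-07). Scgb1a1, the secretoglobin of club cells, measured 78.5, 2121 and 2048 in lung, against 10.1, 0 and 6.01 in spleen, so that lung replicate 2 was low in it. All 15 tested endothelial markers rose (median 4.43), with Cldn5, a tight junction protein of endothelium, at 231, 124 and 188 in lung and 0 reads in every spleen library. In the stromal list 9 of 10 rose (median 4.25), with Sparc, a matrix protein, at 388 ± 39.8 in lung and 0 reads in spleen. Cd36, a fatty acid receptor, and Cav1, the coat protein of caveolae, also had 0 reads in all spleen libraries and were at least 139.8-fold and 109.9-fold higher in lung.

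Summed over its members, the epithelial list stood at 4409, 11869.2 and 11133.5 in lung, against 380.4, 227.1 and 210.2 in spleen. The endothelial list stood at 2533.6, 1854.4 and 2847.7 in lung, against 109, 42.12 and 36.04 in spleen, and the stromal list at 1818.2, 1796.2 and 1939.8 in lung, against 192.7, 98.72 and 84.09 in spleen. Their part in the genes higher in lung was not tested. Of 4 tested genes of eosinophils, basophils and mast cells 2 rose, none fell and 2 were not called (median 1.66). Those that rose were Kit and Gata2, which progenitors express too. They stood at 73.5 ± 28.6 and 69 ± 21.7 in lung, against 4 ± 6.94 and 0 reads in spleen. That list summed to 266.8, 137.2 and 224.7 in lung, against 86.22, 113.6 and 96.1 in spleen. Of 9 MHC class II genes, which antigen-presenting cells express, 2 rose and none fell (median 0.49), and 1 rose without any 1 of the 6 libraries other than spleen replicate 4; the list summed to 677.3, 737.1 and 756.8 in lung, against 258.7, 353 and 318.3 in spleen. Of 6 monocyte genes 1 rose, Nr4a1, which stands in the immediate early list too, and 1 fell (median -0.44). The list summed to 4131, 4238.8 and 4006.1 in lung, against 1497.1, 1816.2 and 1937.6 in spleen. Nr4a1 alone made up most of the lung sums, at 3064.4, 3244.9 and 2966.2, against 60.86, 164.8 and 264.3 in spleen. The higher lung sums therefore do not describe the other members. No call came from 13 tested B cell markers (median 0.69), 9 of platelets (median -0.46) or 9 of erythroid cells (median -0.74). The 3 tested markers of T and NK cells (median 0.26) and the 2 of dendritic cells (median 1.52) gave none either. So few markers cannot show whether those cells differed between the organs. The dendritic list summed to 27.77, 31.86 and 71.04 in lung, against 5.072, 17.28 and 6.006 in spleen. In the alveolar macrophage list Lpl rose and Chil3 fell, and its sum of 307.9, 251.3 and 676.9 in lung, against 3722.8, 2281.1 and 1832 in spleen, includes Chil3, which stands in the secondary granule list too. Of 10 splenic macrophage markers 1 fell and none rose (median -0.89), while 2 fell without lung replicate 2 and none without lung replicate 3, lung replicate 4 or spleen replicate 4. The sum was 2096.5, 1975.2 and 1664.3 in lung, against 2231.6, 2841.4 and 2907.1 in spleen.

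**Figure D4:**
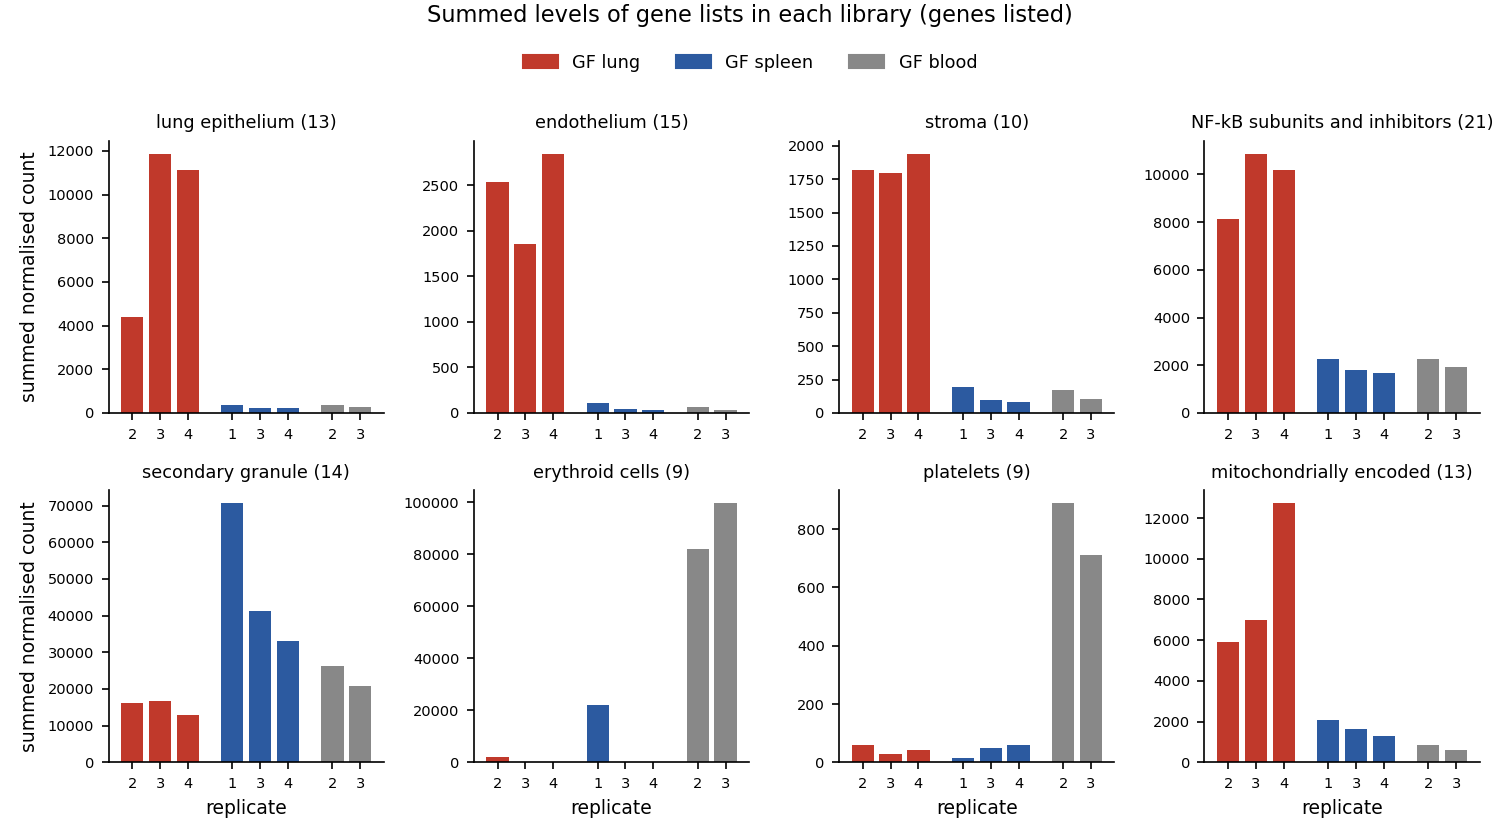
Summed normalised count per library (bars, linear axes from 0) of 8 gene lists in the replicates of GF lung, GF spleen and GF blood, with the number of genes listed in parentheses. Endothelial sums are 1854.4 or more in lung, against 109 or less in spleen, and the secondary granule sums are 16831.3 or less in lung, against 33005 or more in spleen.

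GF blood, which passes through both organs, was set beside them by asking whether its mean level lay nearer to lung or to spleen on the log2 scale. Of the 666 higher genes 567 (85.1%) lay nearer to spleen, as did 152 of the 173 (87.9%) with at least 10 normalised counts in every spleen library, against 4652 of all 8299 tested (56.1%). All 16 higher immediate early factors and all 7 higher NF-kB genes were nearer to spleen: Il1b stood at 4288 and 2822 in blood, Cxcl2 at 2.34 and 0, and Trem1 at 749 and 563. Of the 178 lower genes 112 (62.9%) lay nearer to spleen and 66 (37.1%) nearer to lung. The secondary granule genes differed from that share, with 10 of the 13 lower members (76.9%) nearer to lung: Ltf stood at 238 and 274 in blood, and Ngp at 329 and 326. These positions are descriptions, since GF blood has 2 libraries, 1 of them with 132798 reads. The blood libraries also held more erythroid RNA, with list sums of 82039.7 and 99695.9. Those sums were 2140.2, 104.4 and 217.5 in lung and 22179.6, 98.75 and 78.08 in spleen. Platelet sums averaged 800.1 in blood, 43.76 in lung and 41.55 in spleen. The effect of this on the positions was not tested.

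The same contrast in SPF mice used other libraries, 3 from lung and 3 from spleen, in the same fit. There 802 genes (9.66%) differed, 637 higher (7.68%) and 165 lower (1.99%). Of the 666 genes higher in GF lung 434 (65.2%) were called higher in SPF lung too, which is 68.1% of the 637, and 641 (96.2%) had the same sign. Of the 178 lower genes 70 (39.3%) were called lower in SPF lung, 42.4% of the 165, and 162 (91.0%) had the same sign. No gene was called in opposite directions, and over all tested genes the signs matched in 65.6%. The secondary granule list had 10 members lower in SPF (median -1.45), and Ltf differed by -5.25 in SPF and -5.39 in GF. The NF-kB list had 10 higher in SPF (median 1.15), the immediate early list 15 (median 1.78) and the mitochondrial list 11 (median 1.9). Across the 8299 genes the GF and SPF differences had a Pearson r of 0.708 and a Spearman rho of 0.484, a description across genes, which are not independent replicates.

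**Figure D5:**
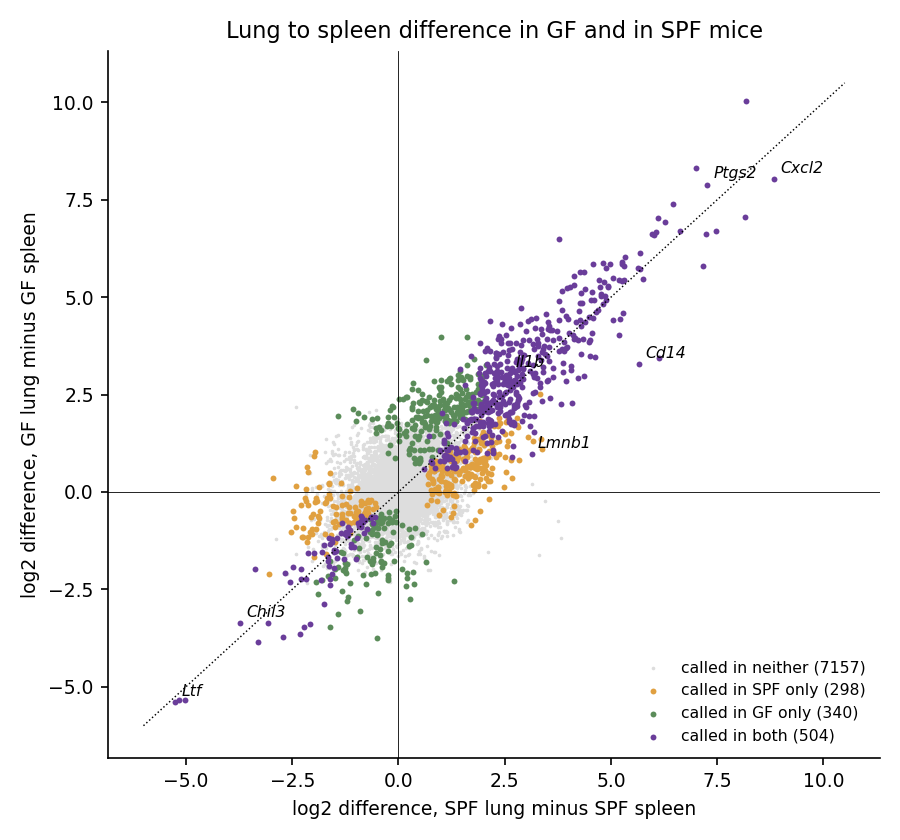
Lung minus spleen difference (log2) of each tested gene in GF mice (vertical) and in SPF mice (horizontal), coloured by whether it was called in both (504 genes), in GF alone (340), in SPF alone (298) or in neither (7157). Genes called in both lie near the diagonal, at the upper right and the lower left.

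The difference between the GF and the SPF contrast was tested as an interaction, and 1 gene passed (0.012%), with 561 at an unadjusted p under 0.05. In this direction, a smaller lung minus spleen difference in GF than in SPF, the call was 1 (0.012%), and in the other it was 0 (0.0%). The gene was Lmnb1, which encodes lamin B1 of the nuclear envelope. It measured 325, 283 and 328 in GF lung, against 132, 175 and 168 in GF spleen (0.96, SE 0.27, adjusted p = 0.0164), and differed by 3.13 in SPF mice. The GF call ended without lung replicate 4 (0.92, adjusted p = 0.0727), lung replicate 2 or spleen replicate 1, with the replicate block (0.78, adjusted p = 0.11), and with thinned reads (adjusted p = 0.0637). The difference of the differences was -2.17 (SE 0.377, adjusted p = 0.0235), and it missed the threshold without lung replicate 3 (-2.10, adjusted p = 0.155), spleen replicate 3 or spleen replicate 4. A gene called in one microbial status and not in the other is therefore not shown to differ between them.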

How the data were processed

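The deposited file holds 1 linear signal value for each of 10296 genes in 16 libraries, with no unit in its header. The submitters' processing notes name CASAVA, RSEM 1.3.1, limma and mm10. Its low values show that the deposited signal is an estimated read count with 0.5 added, divided by a library size. The normalised count printed is that value less its offset. Reads were not whole for enough genes to run a test on counts (91.4% to 98.7% of values under 10 reads lay within 0.05 of a whole read). Floors of 3 reads cover counting error only.

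The test covered 8299 of the 10296 genes, those that reached 10 in 2 or more libraries. In limma 3.58.1 (R 4.3.3), log2(value + 1) was modelled by 6 group means across the 16 libraries; the prior on the spread was trended and robust. Tests were two-sided, with Benjamini-Hochberg adjusted p held to 0.05. The log2(value + 1) scale can understate differences of low genes. The offset was 0.4425 to 0.7249 in GF lung and 1.2343 to 3.0032 in GF spleen. It can understate differences of low genes higher in lung and overstate those of low genes lower in lung. With the offset removed and a pseudocount of 5, 870 genes were higher and 147 lower in GF lung. The same pseudocount with the offset kept gave 733 higher and 196 lower. The fit was also run on simulated counts in which all genes had the same spread setting and no library stood apart. That run therefore does not cover libraries that stand apart here. Symbols were the deposited ones. GENCODE M21, which matched 10275 identifiers, gave coordinates, gene types and symbols where the deposited one was missing. Genes with near-identical copies (Chil3, haemoglobins, mitochondrial genes) and overlapping or antisense genes are uncertain, since no strand-aware counting was stated.

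The genes named were drawn from up to 25 genes per direction with the largest difference and the 15 of highest level, among called genes with a mean of at least 10 in the higher group and no overlap, and from members of 49 gene lists. The members, lists and alternatives were chosen with earlier results of these data known.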

Additional observations from a re-analysis of the deposited data

Results flagged for a closer look

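Lmnb1, which encodes lamin B1, a filament protein of the nuclear envelope, was the gene whose lung to spleen difference differed between GF and SPF mice by a test of the difference itself, with an interaction of -2.17 (SE 0.377, limma adjusted p = 0.0235). In GF mice it averaged 312 ± 24.9 in lung and 158 ± 23.3 in spleen (SD, n = 3 each). Its direction was the same under all alternatives for which it was computed. Its adjusted p was 0.285 without the trended and robust prior, 0.246 with reads thinned to at most 147645 per library (1 SPF spleen library holds fewer) and 0.0919 with precision weights.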

How the results depend on the processing

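Across 20 alternatives, no gene called in the GF comparison both with and without an alternative changed direction, and the number called ranged from 365 to 1017, against 844. It was 365 with a limit of 100 in 2 libraries, which tests fewer genes, and 560 to 756 with 1 library left out, lowest without lung replicate 4. A pseudocount of 0.1 gave 719, a pseudocount of 5 929, median-ratio scaling 861, reads thinned to at most 147645 per library, a depth that 1 GF blood and 1 SPF spleen library do not reach, 594 and the offset removed 1017. The SPF count was 802, against 419 with the limit of 100 and 532 with thinned reads. The interaction count of 1 was 4 with a pseudocount of 5, no filter, the limit of 100, TMM scaling or median-ratio scaling, 3 with quantile normalization, 0 without the prior, with thinned reads, with precision weights or with the offset removed, and 0 to 4 with 1 library left out. It was 34 without the libraries under 250000 reads. That setting, the precision weights and the removed offset were chosen after seeing the data.

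Lung and spleen of GF mice share the numbers 3 and 4, and the labels do not say whether a shared number means the same mouse. Their deviations from the group means correlated at 0.039 and 0.037. GF lung and spleen libraries of different number gave -0.041 to 0.015. Correlations this low in shallow libraries cannot show whether the samples are paired. With replicate number as a block, 645 genes were called in the GF comparison and 6 in the interaction.

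Of 99 named genes, which did not include Hmox1, 93 were called. All their 1842 values under the alternatives kept their direction, and 74 of the 93 kept their call in each. The uncalled S100a8 differed by 0.26 without spleen replicate 1, by 0.16 with the replicate block and by 0.11 without the shallow libraries, and its values with 1 library left out ranged from -0.66 to 0.26. The uncalled Rela differed by 0.06 with thinned reads. The causes were not tested. The depth of the spleen libraries limits genes of few reads. Tests on recovered whole reads in edgeR and DESeq2 were not run, because too few low values were whole.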

Other observations

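Some genes outside the lists, chosen after their values were seen, also separated the organs with every library of one above every library of the other. Irg1, which makes the metabolite itaconate in stimulated phagocytes, measured 953, 1059 and 961 in lung, against 45.6, 46.9 and 78.1 in spleen (4.09, SE 0.40, limma adjusted p = 1.53e-06). Hcar2, a receptor for niacin and ketone bodies, averaged 685 ± 153 in lung and 115 ± 14.6 in spleen (2.52, adjusted p = 4.67e-10), and the transcription factor Ets2 averaged 1221 ± 64.9 in lung and 167 ± 16.2 in spleen (2.85, adjusted p = 1.53e-07). Plaur, the urokinase receptor, averaged 1672 ± 218 in lung and 418 ± 53.1 in spleen (1.99, adjusted p = 5.33e-07). These 4 genes were detected in all spleen libraries.

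Lower in lung among such genes was Tnfaip8l2, an inhibitor of immune receptor signalling, at 74.8, 94.7 and 59.4 in lung, against 314, 368 and 288 in spleen (-2.09, SE 0.25, adjusted p = 2.14e-07). Slfn2, a regulator of leukocyte quiescence, averaged 1173 ± 21.3 in lung and 2428 ± 263 in spleen (-1.04, adjusted p = 2.77e-05). All these genes had the same sign in SPF mice, where Irg1 differed by 4.55, Hcar2 by 2.22, Ets2 by 3.94, Plaur by 2.57, Tnfaip8l2 by -2.67 and Slfn2 by -0.81.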
